A study of Saccharomyces cerevisiae with 8 samples.

Results

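The karyopherins are the soluble carriers that move proteins and RNAs through the nuclear pore, and 10 of their genes in Saccharomyces cerevisiae were followed here: CSE1, SRP1, KAP95, KAP104, KAP114, KAP120, KAP122, KAP123, CRM1 and MSN5. They were chosen by name, as importins and exportins, with the low value of CSE1 in these same data and the known cargo of MSN5 in view. Each is 1 of the 6336 gene features printed on the arrays. The means over the exposures were thus part of the choice, and are given as a description, with no p-value for these genes.

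Importins bind their cargo in the cytoplasm and let go of it when the small GTPase Ran, loaded with GTP, binds them inside the nucleus, while exportins take up cargo together with Ran-GTP and release it outside, where GTP is hydrolysed. The classical import carrier is a pair, in which Srp1 (importin alpha) holds the nuclear localization signal and Kap95 (importin beta) crosses the pore, and Cse1 carries the emptied Srp1 back out. Msn5 exports phosphorylated proteins, among them Far1 and Ste5, which act in the response of an a cell to the alpha mating pheromone.

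The cells were of the haploid laboratory strain BY4741 MATa, grown in rich YPD medium and left untreated or exposed to Iztli peptide 1 (IP-1) at 10 µM. IP-1 joins the alpha pheromone sequence to an antimicrobial peptide. Cultures were harvested after 3.5, 7, 15 or 30 min, with 1 treated and 1 untreated culture for each exposure, grown and harvested independently per the series design text. Cy5-labelled cDNA from the treated cells and Cy3-labelled cDNA from the untreated cells shared 1 spotted array per exposure, so 4 arrays carry the study. The dyes had the same orientation on each of them. A difference in how a probe takes up the dyes therefore cannot be told apart from an effect of the peptide, for any gene described here. Every gene lies on an array as 2 neighbouring spots, listed as replicates 1 and 2, which measured the same labelled cDNA and were averaged. Values are log2 of IP-1 over untreated after background correction and loess normalisation, so 0 is the level of features of equal brightness on the array, and an SD is over the 4 arrays of different exposures.

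Across the tested features, the SD of the log2 ratio was 0.25, 0.22, 0.35 and 0.18 on the 3.5, 7, 15 and 30 min arrays. Between the 2 spots, the correlation across features was 0.778, 0.761, 0.908 and 0.559 in the same order. The headers of the scanner tables number these arrays 2, 3, 4 and 1, which is not the order of the labelled exposures, and neither labels nor headers say what the numbers mean. The labelled exposures were used throughout. Means over the arrays do not depend on that order, whereas slopes do. The mating type was checked with marker genes. In limma's test of the mean, 2 of 7 a-cell markers and 2 of 4 pheromone targets were higher with IP-1, against 2.08% of all tested features. AGA1, which encodes an agglutinin subunit of mating cells, had the highest mean log2 ratio of all tested features, 1.95. The targets FUS1 and FIG1 were not called and were below 0 at 7 min, at −0.10 and −0.20. So were the a-cell markers STE2 and BAR1, at −0.13 and −0.17. The remaining a-cell markers and pheromone targets were above 0 on that array. A ratio of treated over untreated cells of 1 strain does not check the strain itself, whereas signal does. The 7 a-cell markers exceeded the 95th percentile of the empty spots in all 8 readings each, a reading being 1 channel of 1 array, and so did 3 of 4 alpha-cell markers, with SAG1 above it in 6. The features of HIS3, LEU2, MET17 and URA3, which carry deletions in BY4741, also gave signal in both channels of every array. LEU2 read 239 to 451 times background in Cy3 and 245 to 611 times in Cy5, HIS3 and MET17 exceeded the limit of the empty spots in 8 of 8 readings, and URA3 in 7. Where a deletion removes all of the probed sequence, such signal goes against the strain's genotype or against the feature measuring only the gene it names. Probe sequences were not used here, so this was not tested. Signal at a feature therefore does not show by itself that the named gene was transcribed, which holds for the features described here too.

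CSE1, chosen with its low value in view, had a low ratio at every exposure. In the main processing it lay below the other 9 genes on each array, though not under every scaling. On the 3.5, 7, 15 and 30 min arrays its log2 ratios were −0.69, −0.71, −1.14 and −0.67. The treated cells thus had less CSE1 signal than the untreated cells on every array, with the 15 min array lowest and the other 3 close together. The mean was −0.80 ± 0.22 (SD, n = 4), a 1.75-fold lower level. Without the 15 min array the mean was −0.69 ± 0.02 (SD, n = 3). In the order of the exposures the paired spots gave −0.62 and −0.76, −0.69 and −0.74, −1.16 and −1.12, and −0.65 and −0.70. No spot of CSE1 came near 0. Relative to the spread of all features on the same array, the gene lay at −2.79 to −3.74 SDs, and it ranked 39th, 30th, 34th and 11th from the lowest of 6152 tested features in the order of the exposures.

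**Figure D1:**
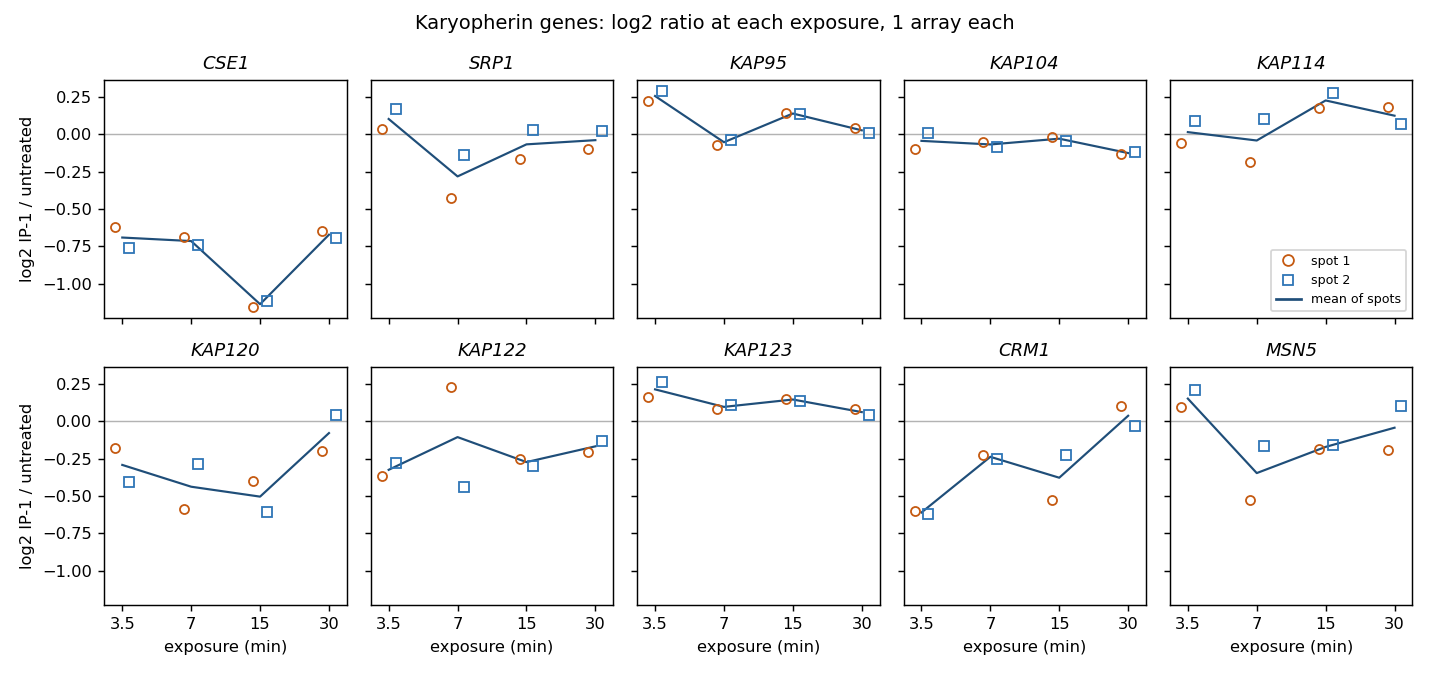
Log2 ratio of IP-1 over untreated (y axis) at each exposure in minutes (x axis, evenly spaced) for the 10 karyopherin genes, with the 2 spots of an array as open symbols and their mean as a line. CSE1 lies between −1.14 and −0.67, and the other 9 genes lie between −0.61 and 0.26.

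Before any correction, the raw intensity of CSE1 was also lower in the treated than in the untreated channel on every array. In the untreated channel the CSE1 spots read 9738, 8027, 5495 and 6904 from 3.5 to 30 min, and in the treated channel 5065, 4821, 3069 and 3916. The signal was 40.2 to 96.3 times the local background in Cy3 and 27.4 to 54.0 times in Cy5, so background had little weight in these ratios. The raw log2 ratios were −0.94, −0.74, −0.84 and −0.82, without the dip at 15 min. They are not centred, and the median raw log2 ratio over the spots of all gene features, tested or not, was −0.15, −0.73, −0.04 and −0.10. At 7 min the uncorrected ratio of CSE1 was thus almost that of the median feature. With loess but no background correction the 7 min value was −0.71, as in the main processing. With background correction and centring on the median in place of loess, CSE1 was at −0.73, −0.41, −0.81 and −0.52, so the 7 min value depended on scaling against features of like brightness. The gene was below 0 on each array under these scalings, though in the raw ratios 0 is not the level of the median feature. The depth of the 15 min value relative to the others differed between the scalings.

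**Figure D2:**
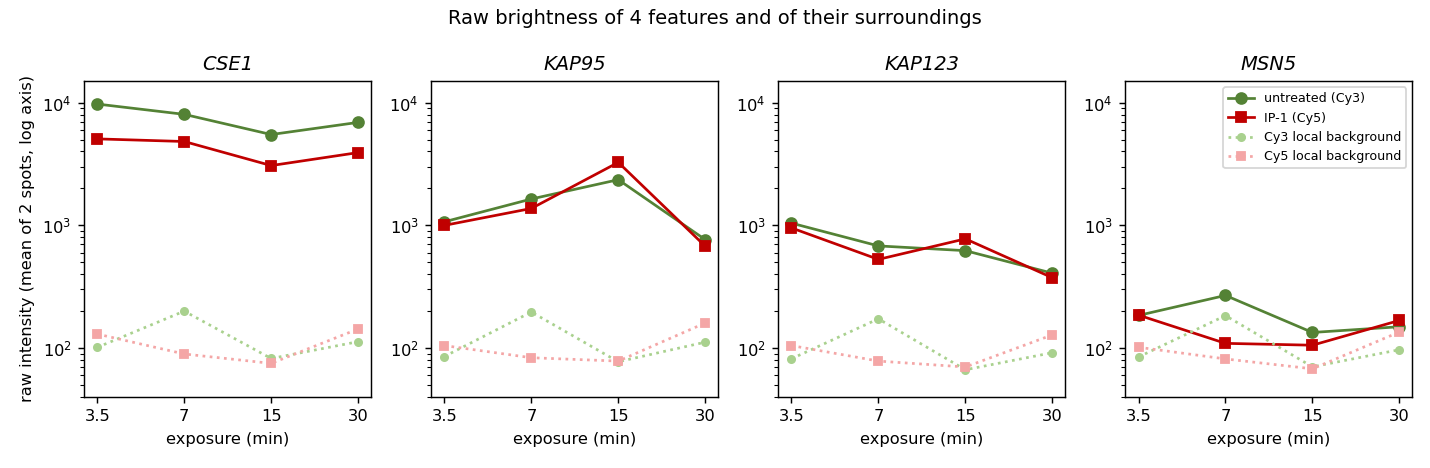
Raw intensity on a log axis (y axis, mean of 2 spots) at each exposure in minutes (x axis) for the features of CSE1, KAP95, KAP123 and MSN5, with the untreated channel (Cy3) in green, the IP-1 channel (Cy5) in red and the local background dotted. CSE1 reads 5495 to 9738 in Cy3 and 3069 to 5065 in Cy5, while MSN5 stays within 1.24 to 2.18 times its background.

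SRP1, the gene of the importin alpha that Cse1 returns to the cytoplasm, had log2 ratios of 0.10, −0.28, −0.07 and −0.04. It was above 0 at 3.5 min and below 0 on the later arrays, with a mean of −0.07 ± 0.16 (SD, n = 4). Its signal was 1.41 to 3.14 times background and its spots differed by up to 0.29. KAP95, the importin beta that pairs with Srp1, had 0.26, −0.05, 0.14 and 0.03, with a mean of 0.09 ± 0.13 (SD, n = 4). Its raw Cy3 intensities were 1068, 1638, 2355 and 764 and its Cy5 intensities 998, 1372, 3258 and 675. Both spots of KAP95 agreed within 0.07, so the differences between its arrays were larger than those between its spots. At every exposure SRP1 and KAP95 were both above CSE1, but at 7 min SRP1 and CSE1 were close with median centring, at −0.40 and −0.41, and in the deposited ratios SRP1 was the lower, at −1.21 against −0.74.

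Among the other importins, the values of KAP104, whose product imports the mRNA-binding proteins Nab2 and Hrp1, were −0.04, −0.07, −0.03 and −0.13. This was the narrowest range of the 10 genes, with a mean of −0.07 ± 0.04 (SD, n = 4). KAP123, a carrier of ribosomal proteins and histones, had 0.21, 0.10, 0.15 and 0.06, and a mean of 0.13 ± 0.07 (SD, n = 4). It was the 1 gene of the 10 above 0 on each of the 4 arrays. KAP114, which imports the TATA-binding protein and histones, had 0.01, −0.04, 0.23 and 0.12, and a mean of 0.08 ± 0.12 (SD, n = 4).

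KAP120 and KAP122 were below 0 on each array. KAP120, an importin gene, had −0.29, −0.44, −0.50 and −0.08, and a mean of −0.33 ± 0.19 (SD, n = 4), a 1.26-fold lower level. Its spots read −0.18 and −0.41, −0.59 and −0.29, −0.40 and −0.61, and −0.20 and 0.04 from 3.5 to 30 min. Both spots were below 0 on the first 3 arrays and lay on either side of 0 at 30 min. KAP122, whose product imports the general transcription factor TFIIA, had −0.33, −0.11, −0.27 and −0.17, and a mean of −0.22 ± 0.10 (SD, n = 4). Its 7 min value averages spots of 0.23 and −0.44, the widest gap between spots of any of the 10 genes. On the other 3 arrays both KAP122 spots were below 0.

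The exportin genes CRM1 and MSN5 had weak signals. CRM1 encodes the receptor for leucine-rich nuclear export signals. Its log2 ratios were −0.61, −0.24, −0.38 and 0.04, which run from the lowest value of the other 9 genes to near 0, with a mean of −0.30 ± 0.27 (SD, n = 4). CRM1 did not enter the tests, because 1 of its spots at 3.5 min exceeded its background by only 1.67 background SDs in the better channel, where 2 were required. MSN5 had 0.15, −0.35, −0.17 and −0.04, and a mean of −0.10 ± 0.21 (SD, n = 4). Its paired spots read 0.09 and 0.21, −0.53 and −0.17, −0.18 and −0.16, and −0.19 and 0.10 in the order of the exposures. MSN5 thus had no common direction over the arrays. Its signal was 1.46 to 2.18 times background in Cy3 and 1.24 to 1.83 times in Cy5, and it exceeded the 95th percentile of the 320 empty spots in 5 of 8 readings. A difference of the size seen in CSE1 would be compressed at such signals by the offset of 50 added to both channels.

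Signal over background and the agreement of the spots split the set, though neither shows what a feature measured. CSE1, KAP95, KAP104 and KAP123 had signals of 2.82 to 96.3 times background, and their spots differed by at most 0.14. The other 6 genes had signals of 1.24 to 4.16 times background, and their spots differed by up to 0.67. Of those 6, KAP120 and CRM1 exceeded the 95th percentile of the empty spots in each of the 8 readings. The order of the means ran from CSE1 through KAP120, CRM1, KAP122, MSN5, SRP1, KAP104, KAP114 and KAP95 to KAP123. From KAP120 upward, the 4 array values of each gene overlapped with those of the next gene in that order. The highest value of CSE1, −0.67 at 30 min, lay below the lowest value of every other gene in the set. This depended on the scaling. CSE1 was the lowest of the 10 genes on all 4 arrays with print-tip loess and without background correction, but on 3 of 4 with an offset of 10, where CRM1 was lower at 3.5 min. With median centring 2 genes were below it at 7 min, KAP120 at −0.53 and MSN5 at −0.44, and in the deposited ratios 6 genes were.

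**Figure D3:**
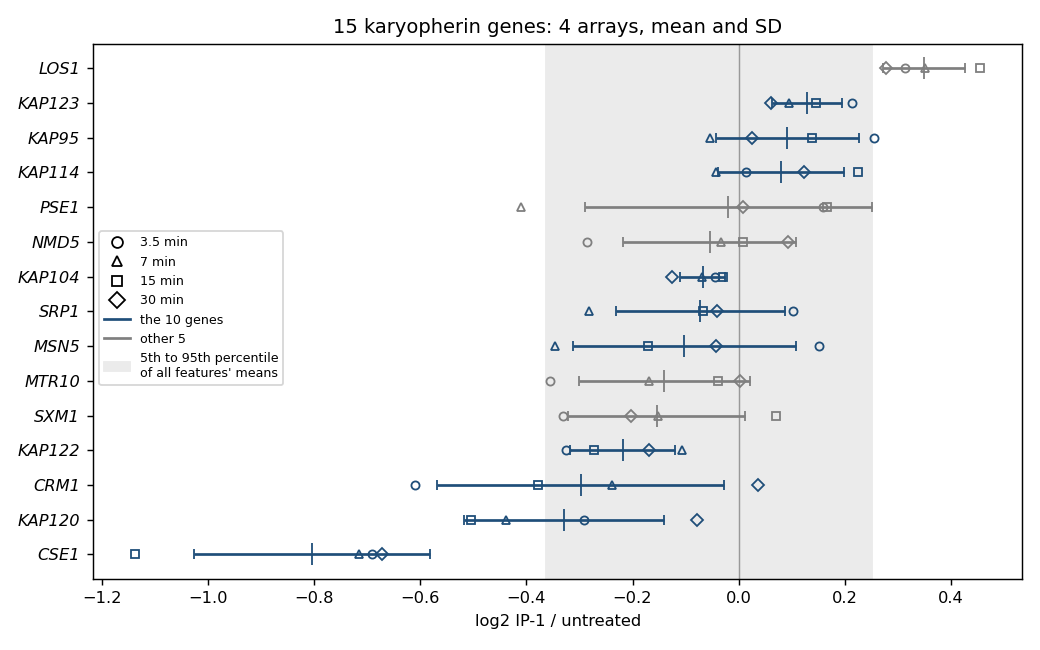
Mean log2 ratio of IP-1 over untreated with its SD over 4 arrays (x axis, bars) and the 4 array values (open symbols) for 15 karyopherin genes ordered by mean (y axis), with the 10 genes in blue, the 5 other karyopherins in grey, and the 5th to 95th percentile of the means of all tested features (−0.36 to 0.25) shaded. CSE1 lies below the shaded range and LOS1 above it, while KAP120 and CRM1 are near its lower edge.

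Of the 10 genes, 9 passed the signal limit that admitted 6152 features to the tests. In limma's test of the mean (Benjamini-Hochberg over all tested features, adjusted p under 0.05), 2 of the 9 were called lower, CSE1 and KAP120, and 0 were called higher. Over all tested features 8.91% were called, 6.83% lower and 2.08% higher. With the 3.5 or the 7 min array left out, 0 of the 9 were called. KAP120 was also not called without the 15 min array, without spot 1, with median centring, without background correction or with the deposited ratios. Since the value of CSE1 in this contrast was in view when the genes were chosen, the count describes the choice and is no test of it. The median log2 ratio of the 9 genes was 0.01, −0.11, −0.07 and −0.04 from 3.5 to 30 min, against 0.00, 0.01, 0.01 and 0.00 for all tested features. Below 0 were 4, 8, 6 and 6 of the 9 genes, against 49.7%, 47.4%, 48.6% and 49.2% of all features. The same sign on all 4 arrays was seen in 5 of the 9 genes and in 36.9% of all features. CSE1, whose low value was in view in the choice, is in each of these counts. They too describe the choice and are no test of the set.

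A trend over time was not used in choosing the genes and could be tested. The slope of CSE1 was −0.04 on the log2 scale per doubling of the exposure, with a 95% interval of −0.23 to 0.16 (limma, unadjusted p = 0.668 over 4 arrays). For KAP120 the slope was 0.05 with an interval of −0.12 to 0.23, and for MSN5 it was −0.04 with an interval of −0.23 to 0.15. The slopes of the 9 tested genes lay between −0.05 and 0.06, and their unadjusted p-values from limma were 0.394 or more. Among all 6152 features 0 passed (0%) by limma with Benjamini-Hochberg adjustment, where the smallest adjusted p was 0.999976, and 61 had an unadjusted p under 0.05. Each slope rests on 4 arrays, and leaving out 1 of them moved it. That of CSE1 ran from −0.22 without the 30 min array to 0.01 without the 3.5 min array. In the same comparisons KAP120 ran from −0.10 to 0.17 and MSN5 from −0.15 to 0.14, and 7 of the 9 slopes took both signs. A response that rises and falls again is not described by a slope.

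At single exposures, where 1 array allows no test, a gene was counted when both of its spots were at least 2-fold lower. At 15 min this held for CSE1 alone among the 10 genes, and for 54 features or 0.878% of those tested. At 3.5 min and at 7 min it held for 0 of the 10 genes and for 2 features or 0.0325% on each array. At 30 min it held for 0 features (0%).

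Of the 5 other karyopherin genes, LOS1, the exportin for tRNA, was called higher. Its log2 ratios were 0.31, 0.35, 0.46 and 0.28, with a mean of 0.35 ± 0.08 (SD, n = 4) and an adjusted p of 0.020 in limma's test. It was above 0 on each array, but was not called with median centring, with the deposited ratios, or without the 3.5 or the 7 min array, and its adjusted p over the 14 alternatives ran from 0.0058 to 0.669. PSE1, an importin of ribosomal proteins and transcription factors, had 0.16, −0.41, 0.17 and 0.01. SXM1, an importin of the La protein homologue Lhp1, had −0.33, −0.15, 0.07 and −0.20. NMD5, an importin of the stress kinase Hog1, had −0.29, −0.03, 0.01 and 0.09. MTR10, the importin of the mRNA-binding protein Npl3, had −0.36, −0.17, −0.04 and 0.00. These 4 genes were not called, and their means lay between −0.15 and −0.02.

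**Figure D4:**
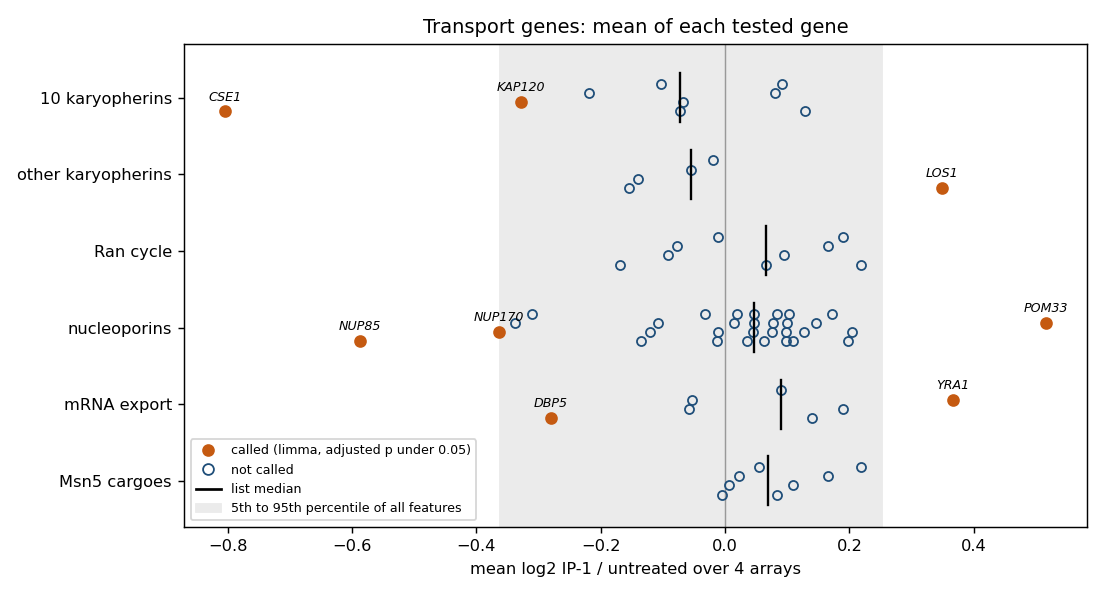
Mean log2 ratio of IP-1 over untreated over 4 arrays (x axis) of each tested gene in 6 lists of nuclear transport genes (y axis, points spread vertically for sight), with filled points for genes called by limma (adjusted p under 0.05), bars for list medians and shading for the 5th to 95th percentile of all tested features. The list medians lie between −0.07 and 0.09, and 8 genes are called, from CSE1 at −0.80 to POM33 at 0.52.

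The other transport genes are read against the 8.91% called among all tested features. Their lists, like that of the other karyopherins, were chosen with earlier results of these data known. The calls in them are thus a description. Of 9 genes of the Ran cycle, which covers Ran itself (GSP1, GSP2), its exchange factor, its GTPase-activating protein and Ran-binding proteins, 0 were called higher and 0 lower, and their median mean was 0.07 against 0.01 for all features. Of 33 nucleoporin genes, 31 were tested, 1 was called higher and 2 lower, a share near that of all features, with a median of 0.05. NUP85, which encodes a subunit of the Y-shaped Nup84 complex of the pore scaffold, fell, with ratios of −0.36, −0.56, −1.003 and −0.43 and a mean of −0.59 (adjusted p = 0.019, limma, n = 4). NUP170, a gene of the inner ring of the pore, fell, with −0.32, −0.51, −0.35 and −0.28 and a mean of −0.36 (adjusted p = 0.020, limma, n = 4). POM33, which encodes a pore membrane protein, rose, with 0.44, 0.61, 0.74 and 0.28 and a mean of 0.52 (adjusted p = 0.015, limma, n = 4). Each of these calls was lost without the 3.5 or the 7 min array, where 12 and 10 features in all were called. POM33 was also lost with the deposited ratios, and NUP170 in 5 of the 14 alternatives altogether.

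Of 9 genes of mRNA export, 7 were tested, and 1 was called higher and 1 lower, with a median of 0.09. YRA1, the adaptor that hands mRNA to the export receptor, rose, with 0.27, 0.34, 0.63 and 0.22 and a mean of 0.37 (adjusted p = 0.031, limma, n = 4). DBP5, the helicase that strips the receptor off at the pore, fell, with −0.20, −0.43, −0.22 and −0.27 and a mean of −0.28 (adjusted p = 0.040, limma, n = 4). YRA1 was called in 8 and DBP5 in 5 of the 14 alternatives.

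Of 8 genes whose products Msn5 is known to export, 0 were called higher and 0 lower, with a median of 0.07. FAR1, an inhibitor of the G1 cyclin kinase and a scaffold of polarised growth, had 0.21, 0.11, 0.11 and 0.24 and a mean of 0.17 ± 0.07 (SD, n = 4). It was above 0 on each array (adjusted p = 0.13 in limma), and its mean under the 14 alternatives ran from −0.12 to 0.21. STE5, the scaffold of the mating kinase cascade, had 0.46, −0.21, 0.04 and −0.07 and a mean of 0.06 ± 0.29 (SD, n = 4), with an adjusted p of 0.77 in limma. STE5 had no common direction over the arrays. These are transcript ratios, and export of the proteins was not measured.

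Among tested features of a single named gene, the 4 array values of FAL1, AAC1 and GAL7 were most like those of CSE1. Their Euclidean distances over 4 values were 0.221, 0.264 and 0.281, against a median distance of 1.69 over all tested features. FAL1, a helicase gene of ribosome assembly, had a mean of −0.84, AAC1, a mitochondrial ADP/ATP carrier gene, −0.73, and GAL7, a galactose enzyme gene, −0.71. In all, 24 tested features, named or not, lay within 0.5 of CSE1. The named features most like MSN5 were YAP1802, FKS3 and STE23, at 0.085, 0.085 and 0.088. However, 2185 features lay within 0.5 of MSN5 and the median distance was 0.57, so many features have values near its own. The distance includes the level of the ratios, so a gene near 0 lies close to many features whatever its pattern over the arrays. FAL1 and AAC1 had Cy3 signals of 3.57 to 13.0 and 14.1 to 33.1 times background, and GAL7 of 85.2 to 199. GAL7 is known to be repressed in glucose medium such as YPD, so the identity of what its bright feature measured is in doubt.

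On chromosome VII the genes DOC1 and HAP2 flank CSE1 in the RefSeq gene order (R64), and neither was called. DOC1 had 0.04, −0.55, −0.35 and 0.14, low on the 7 and 15 min arrays only, and HAP2 −0.15, −0.01, 0.05 and −0.09. KAP114 lies on the far side of DOC1. Of the 18 neighbours of the 10 genes that have a feature, 1 was called, the GAL7 feature, whose gene lies beside KAP104. On the slides, the 5 features printed around CSE1 had medians of 0.12, 0.04, 0.17 and 0.00.

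**Figure D5:**
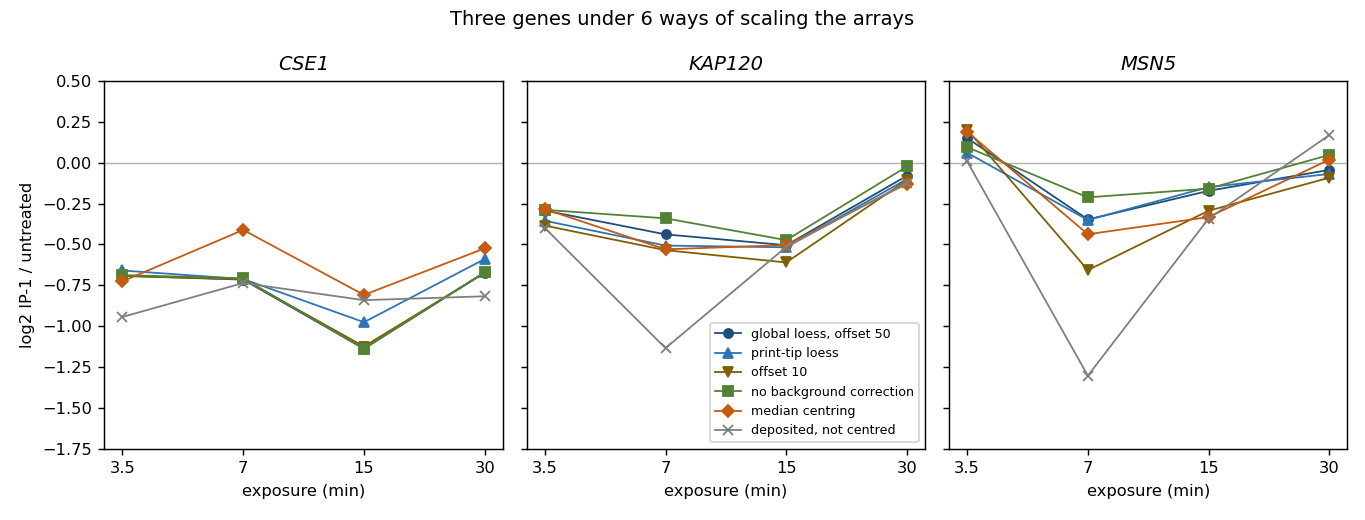
Log2 ratio of IP-1 over untreated (y axis) at each exposure in minutes (x axis) for CSE1, KAP120 and MSN5 under 6 ways of scaling the arrays, told apart by colour and symbol. CSE1 stays between −1.14 and −0.41, and the deposited ratios, which are not centred, put KAP120 at −1.13 and MSN5 at −1.30 on the 7 min array, where all features had a median of −0.72.

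Over the 14 alternatives the mean of CSE1 was below 0 in each and ranged from −0.85 to −0.62. KAP120 was below 0 in each, from −0.54 to −0.27. MSN5 was below 0 in each, from −0.37 to −0.0038. The sign of the mean changed in 1 of the 14 alternatives each for SRP1, KAP95, KAP114 and KAP123. Those of the 14 that change the filter or keep the spots separate leave each mean as it was by construction.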

How the data were processed

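The authors deposited 1 scanner table per array, holding raw, background and background SD intensity for each spot and channel, per the file headers. Values of the deposited series matrix equal log10 of the uncorrected treated over untreated intensity (largest gap 4.98e-07). No label or header names the scanner software. The genes and lists were chosen with earlier results of these data known.

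Intensities were background-corrected with normexp (offset 50, which draws dim ratios toward 0) and loess-normalised (span 0.3, 4 iterations), with empty and Arabidopsis spots at weight 0. A feature was tested if both spots exceeded background by 2 background SDs in 1 channel on all arrays. limma 3.58.1 in R 4.3.3 tested means against 0 and slopes on log2 minutes (two-sided). The scripts were tested on simulated data.

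The text names the 10 genes, the other karyopherins, called genes of the lists, FAR1, STE5, and the 3 named features most like CSE1 and MSN5. Gene names follow the files, updated through 5763 RefSeq locus tags. Alternatives covered background, scaling, filter, spots and arrays. Array number limits precision.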

Additional observations from a re-analysis of the deposited data

Results flagged for a closer look

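Of the 15 karyopherin genes examined for 1 array far from the other 3, CSE1 was singled out. Its log2 ratio of −1.14 at 15 min stood apart from the other 3 arrays, with a gap of 0.908 of the whole range above Dixon's 95% critical value for 4 samples. Chance alone gives such a gap in about 1 in 20 groups of 4 replicates, so 1 such gap among 15 genes is not told apart from chance. The 4 values are of different exposures rather than replicates, and the low value of CSE1 was in view when the genes were chosen. With median centring the gap was 0.283, with print-tip loess 0.683 and in the deposited ratios 0.495, all under that value. It stayed above it with an offset of 10, at 0.913, and was larger still without background correction. The 15 min array also had the largest SD over all features, 0.35, and relative to that spread CSE1 lay between its values at 7 and 30 min. Whether the spread of the array has a part in the low value was not tested.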

How the results depend on the processing

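Of the 14 alternatives for the mean, print-tip loess was chosen after seeing the data. The count of the 10 genes called, 2, became 1 with median centring, 1 without background correction and 1 with the deposited ratios, and ranged from 0 to 2 when 1 array or spot was left out. Dropping the array of 3.5 or 7 min gave 0, and the count was 1 without spot 1 or without the 15 min array. All features called, 548, became 304 with median centring, 263 without background correction, 59 with the deposited ratios and 930 with the spots kept separate (duplicateCorrelation), and ranged from 10 to 575 with 1 array or spot left out. The deposited ratios, whose median was −0.23, gave 52 lower and 7 higher calls against 420 and 128. Leaving out the 3.5 min array gave 5 lower and 7 higher, and leaving out the 7 min array 2 and 8, while 1411 and 1184 features had an unadjusted p under 0.05, against 1732 with all arrays. For the slope, 0 to 30 features were called with 1 array or spot left out, 15 of them without the 15 min array and 30 once the 30 min array was left out, none of them among the 10 genes. Fits with 1 array left out rest on fewer arrays, while those with 1 spot left out keep all arrays. The cause of these changes was not tested. Among single genes, 132 means and 111 slopes moved by less than the spread between arrays, and 8 and 15 by more. Changing the filter or keeping the spots separate cannot move a mean or slope, so those settings count as unmoved by construction. No paired analysis was possible by replicate number because replicates 1 and 2 are spots of the same labelled cDNA on 1 array. These spots were averaged. The test of the mean was itself paired by array, since each log2 ratio compares treated and untreated cells on 1 array. Low signal over background limits SRP1, KAP114, KAP120, KAP122, CRM1 and MSN5 most. Of the 10 genes, KAP120 had the widest median gap between spots, 0.23.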
